A study of Mus musculus with 6 samples.

Results

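The genes described here are 10 genes grouped around the route from leukemia inhibitory factor (LIF) and its receptors to STAT3 and SOCS3. They are Lif, Lifr, Il6st, Cntfr, Osmr, Jak1, Jak2, Jak3, Stat3 and Socs3, out of 32285 genes in the count table. Of these genes, Jak3 is a Janus kinase that serves other cytokine receptors. The 10 genes were selected on their counts in the OIR-CIH against the OIR-Norm libraries. The differences between these groups are therefore given as a description and support nothing beyond themselves. To ask how chronic intermittent hypoxia (CIH) alters transcription in the ischemic retina, retinal RNA of wild-type C57BL/6J pups was sequenced in bulk at postnatal day (PN) 18, with 3 OIR-CIH and 3 OIR-Norm libraries. All pups had oxygen-induced retinopathy (OIR): with their mothers they breathed 75% O2 for 5 days from PN8, which removes the capillaries of the central retina, and they went back to room air at PN13. OIR-CIH pups then had 10 h of CIH each day, in 266 cycles of 135 s that took O2 from 20.95% down to 5% and back. OIR-Norm pups received the same gas flow with O2 left constant, and no library of a retina without hyperoxia was analysed here.

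Total counts ranged from 26289905 to 38010151 per library. Rod photoreceptor markers summed to between 41990 and 55170 CPM (counts scaled for the size of the library) in each library, as a retina should give. The study's methods name 3 eyes for each group of 3 libraries. Yet Xist (298.5 to 1653 CPM) and the Y-linked Ddx3y (21.2 to 65.0 CPM) were both present in all 6 libraries. So n is a number of libraries, and how many pups gave each one is unclear. OIR-Norm replicate 2 stood apart in lens RNA, with 370.7 CPM summed over 5 lens markers against 16.9 to 21.0 in the other OIR-Norm libraries. In OIR-CIH the highest lens sum was 57.3 CPM, in replicate 2, against 11.5 and 17.9. Results that rest on these libraries are given with and without them.

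LIF is a cytokine of the interleukin 6 family. It binds LIFR, which pairs with gp130, the shared receptor chain encoded by Il6st, and Janus kinases attached to these chains then phosphorylate STAT3. STAT3 enters the nucleus and activates genes that include Socs3, whose product binds gp130 and the kinases and shuts the signal down. In the injured retina LIF is made by Müller glia and is known for protecting photoreceptors, and STAT3 activity there accompanies the rise of Gfap in reactive glia.

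Stat3 and Socs3, at the end of the route, were lower in OIR-CIH, and so was the kinase Jak3. Stat3 fell to 64.5% of its OIR-Norm mean, Socs3 to 39.3% and Jak3 to 49.7%. Lif had a lower mean in OIR-CIH, at 20.8% of OIR-Norm, but 1 OIR-Norm library set most of that difference and the gene did not pass the threshold. The widely used kinases Jak1 and Jak2 and the receptor chain Cntfr had means of 106%, 101% and 120% of OIR-Norm and did not pass either. A gene was called when edgeR's quasi-likelihood test over all 20021 genes with a total of at least 10 counts gave a Benjamini-Hochberg adjusted p under 0.05 and the log2 fold change was over 0.5 or under -0.5. By this rule 3 of the 10 genes were called, all lower, where 0.315% of all genes tested were called in either direction, 0.210% lower and 0.105% higher. The 3 values of each group did not overlap for 8 of the 10 genes, against 18.4% of all genes, and nothing is read from either count because this contrast chose the genes. Over the 10 genes the median log2 fold change was -0.53, beside -0.01 over all genes tested. In bulk RNA, fewer cells of a type and less RNA per cell cannot be told apart. RNA levels do not measure the phosphorylation of STAT3, and signalling through the route was not tested.

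A STAT dimer binds the palindromic letters TTCNNNGAA, which read the same on both strands. Stretches before the RefSeq starts of the 3 called genes are shown so that any such letters can be seen. They come from RefSeq (GRCm38.p6), 5′ to 3′ on the strand of the gene, beginning 250 bases before the RefSeq start and ending at the next exon in GENCODE M21, with the motif in capitals. Those of Stat3 and Jak3 end at the gene boundary, whereas that of Socs3 lies inside the gene span of GENCODE, between annotated exons.
Socs3, chr11:117969452-117969616, minus strand, 165 bases: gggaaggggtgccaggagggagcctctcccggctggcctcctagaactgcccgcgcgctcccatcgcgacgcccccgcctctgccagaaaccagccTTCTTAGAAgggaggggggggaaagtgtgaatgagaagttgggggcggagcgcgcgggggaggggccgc
Stat3, chr11:100939541-100939790, minus strand, 250 bases: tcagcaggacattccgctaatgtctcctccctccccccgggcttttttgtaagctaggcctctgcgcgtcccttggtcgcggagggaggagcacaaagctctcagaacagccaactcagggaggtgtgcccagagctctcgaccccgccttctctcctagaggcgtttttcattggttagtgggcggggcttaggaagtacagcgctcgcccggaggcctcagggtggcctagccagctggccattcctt
Jak3, chr8:71676133-71676295, plus strand, 163 bases: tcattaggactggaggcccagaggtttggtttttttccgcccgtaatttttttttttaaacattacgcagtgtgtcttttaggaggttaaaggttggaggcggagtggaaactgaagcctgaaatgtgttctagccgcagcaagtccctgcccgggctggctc

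Windows of 300 bases, 250 before to 50 after the start, were on hand for all 10 genes, and 1 of them, that of Socs3, held the motif. The Socs3 match begins 154 bases before the RefSeq start, which itself lies 180 bases upstream of the start of the protein-coding transcript in GENCODE M21. The motif was in 2726 of 32851 windows (8.30%), and 2582 of 27025 genes (9.55%) had it in at least 1 window. A match is only a run of letters, and a window without one says only that the letters are not in that window.

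**Figure D1:**
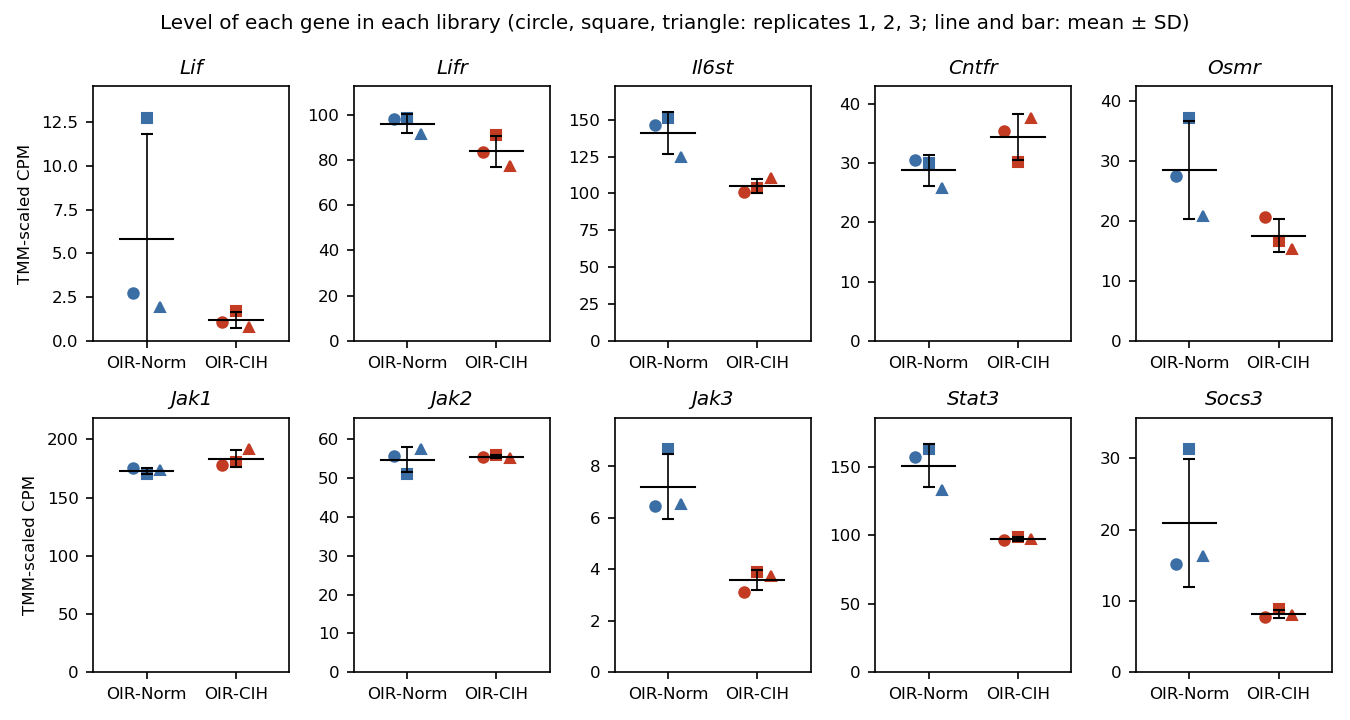
Each panel plots TMM-scaled CPM (from 0) of 1 gene in the 3 OIR-Norm (blue) and 3 OIR-CIH (red) libraries, with the mean as a line and the SD as a bar (cut at 0 for Lif), and circles, squares and triangles for replicates 1, 2 and 3. The 3 OIR-CIH libraries lie between 96.4 and 98.6 CPM for Stat3, under all OIR-Norm libraries, whereas OIR-Norm replicate 2, the square, stands alone at 12.7 CPM for Lif and 31.2 CPM for Socs3.

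Lif (ENSMUSG00000034394, chr11:4257557-4272514 in GENCODE M21 on GRCm38), the ligand, was the most variable gene of the route. Its level, in CPM after TMM scaling (a trimmed mean of M-values, which makes libraries comparable), was 1.10, 1.70 and 0.820 CPM in OIR-CIH replicates 1, 2 and 3. In OIR-Norm it was 2.73, 12.7 and 1.92 CPM, from between 28 and 363 counts per library over both groups. All OIR-CIH libraries were below all OIR-Norm libraries, the nearest pair being OIR-CIH replicate 2 and OIR-Norm replicate 3, and the OIR-Norm values were spread widely. The means were 1.21 ± 0.449 (SD, n = 3) and 5.79 ± 6.03 CPM (SD, n = 3), a log2 fold change of -2.26 with a standard error (SE) of 0.66. With an adjusted p of 0.222 in edgeR, Lif was not called. Without OIR-Norm replicate 2 the log2 fold change of Lif was -0.97, and without replicate 2 of both groups it was -1.30. OIR-Norm replicate 2 was also the library with most lens RNA, and its sums of 254.9 CPM for 6 endothelial markers and 208 CPM for 4 pericyte and smooth muscle markers were the highest of the 6 libraries. The part of these cells in the Lif level was not tested.

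**Figure D2:**
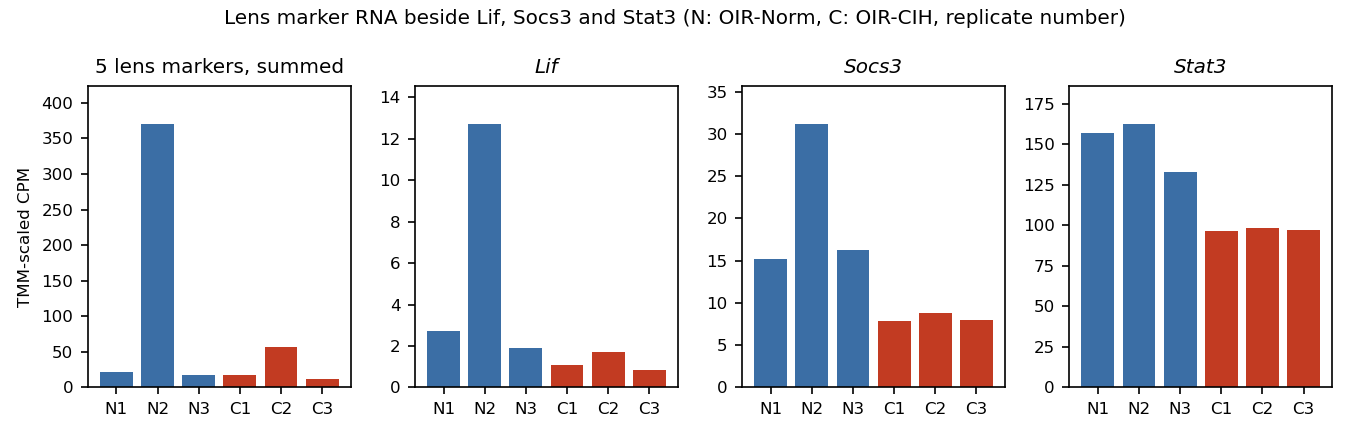
Bars give TMM-scaled CPM (from 0) in each library, OIR-Norm replicates 1 to 3 (N1 to N3, blue) and OIR-CIH replicates 1 to 3 (C1 to C3, red), for the sum of 5 lens markers and for Lif, Socs3 and Stat3. N2 is highest in all panels, at 370.7 CPM for the lens sum, 12.7 for Lif and 31.2 for Socs3, and at 163 CPM for Stat3 it is close to N1 at 157.

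The receptor chains did not move alike. Il6st (ENSMUSG00000021756, chr13:112464070-112510086), the chain through which all cytokines of the family signal, had 101, 103 and 110 CPM in OIR-CIH and 147, 151 and 125 CPM in OIR-Norm. The 2 groups did not overlap, at 105 ± 4.71 and 141 ± 14.1 CPM (SD, n = 3 each). The log2 fold change of -0.43 (SE 0.08) was under the size needed for a call, and the adjusted p of edgeR was 0.0644. In DESeq2 the adjusted p was 0.000974, and the log2 fold change of -0.42 was again under that size. A block by replicate number gave an adjusted p of 0.113 in edgeR, but these numbers did not pair the libraries. Without OIR-Norm replicate 3, the lowest of its group, Il6st was called at -0.51.

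Lifr (ENSMUSG00000054263, chr15:7090614-7197489), the chain that binds LIF, had 83.3, 90.9 and 77.1 CPM in OIR-CIH and 98.2, 98.6 and 91.3 CPM in OIR-Norm. The groups were separate by a margin under 1 CPM, between OIR-CIH replicate 2 and OIR-Norm replicate 3, and the log2 fold change of -0.20 (SE 0.08) was not called. Cntfr (ENSMUSG00000028444, chr4:41657498-41697089), which binds ciliary neurotrophic factor and joins LIFR and gp130, had 35.5, 30.2 and 37.6 CPM in OIR-CIH and 30.6, 30.0 and 25.8 CPM in OIR-Norm. Its groups overlapped, with a log2 fold change of 0.26 (SE 0.10) that was not called. The per-length ratio of Cntfr to Lifr was 1.61 ± 0.305 in OIR-CIH and 1.16 ± 0.0591 in OIR-Norm (SD, n = 3 each), and the lowest OIR-CIH ratio, 1.29, was above the highest OIR-Norm ratio, 1.21.

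Osmr (ENSMUSG00000022146, chr15:6813577-6874969), the chain for oncostatin M, had 20.6, 16.6 and 15.4 CPM in OIR-CIH. In OIR-Norm it had 27.4, 37.2 and 20.8 CPM, again with replicate 2 highest and replicate 3 just above the nearest OIR-CIH library. The log2 fold change was -0.70 (SE 0.18) with an adjusted p of 0.162 in edgeR. Its call depended on the tool: DESeq2 called it at an adjusted p of 0.00495, and edgeR called it only without OIR-Norm replicate 3. Without OIR-Norm replicate 2 the log2 fold change of Osmr was -0.47, over 1.5 times smaller.

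Of the kinases, Jak1 (ENSMUSG00000028530, chr4:101152367-101265282), the main kinase of gp130, was the steadiest gene between groups after Jak2. It had 178, 181 and 191 CPM in OIR-CIH and 175, 170 and 174 CPM in OIR-Norm. The groups did not overlap although the log2 fold change was 0.08 (SE 0.07). Jak2 (ENSMUSG00000024789, chr19:29251828-29313080) lay between 51.1 and 57.3 CPM in all 6 libraries, its groups overlapped, and its log2 fold change was 0.02 (SE 0.07), with a sign that turned without OIR-Norm replicate 2. Jak1 overlaps exons of Raver2 on the opposite strand, and which strand was counted is not stated.

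Jak3 (ENSMUSG00000031805, chr8:71676296-71690575), which serves cytokine receptors with the common gamma chain, above all in blood and immune cells, was called lower. It had 3.14, 3.88 and 3.73 CPM in OIR-CIH and 6.46, 8.67 and 6.53 CPM in OIR-Norm, from 80 to 247 counts per library. Every OIR-CIH library was well under the lowest OIR-Norm library, with means of 3.59 ± 0.393 and 7.22 ± 1.25 CPM (SD, n = 3 each). The log2 fold change was -1.00 (SE 0.17, adjusted p = 0.0226 in edgeR). The call was lost without any single OIR-CIH library and without OIR-Norm replicate 2, with adjusted p of edgeR from 0.0250 to 0.143 over the 6 fits that each left out 1 library, and it was lost without replicate 2 of both groups (log2 fold change -0.91, adjusted p = 0.109). Of 12 microglia markers, 11 had a lower and 1 a higher estimate in OIR-CIH and 1 (Fcrls) was called lower, and their sum was 111.6 to 129.4 CPM in OIR-CIH against 138.9 to 156.5 CPM in OIR-Norm. Of 8 blood leukocyte markers, Cd3e was at 0 in all libraries and the sum was between 0.873 and 1.72 CPM. The part of microglia in the Jak3 result was not tested. Exons of Jak3 overlap exons of Insl3 on the same strand, and Insl3 had a mean of 0.0781 CPM over the 6 libraries.

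Stat3 (ENSMUSG00000004040, chr11:100885098-100939540), the transcription factor of the route, was called lower and had the 21st lowest p of the 20021 genes. Its 3 OIR-CIH libraries were almost alike, at 96.4, 98.6 and 97.1 CPM. The OIR-Norm libraries had 157, 163 and 133 CPM. The groups were far from overlapping, the highest OIR-CIH value being followed by an OIR-Norm value 1.35 times as high. The means were 97.3 ± 1.12 and 151 ± 15.8 CPM (SD, n = 3 each), with a log2 fold change of -0.63 (SE 0.08, adjusted p = 0.00620 in edgeR). Stat3 was called in all 6 fits that left out 1 library, with log2 fold changes from -0.72 to -0.58, and also without replicate 2 of both groups, at -0.59. Exons of Stat3 overlap exons of Stat5a on the opposite strand. Stat5a had 6.25 ± 1.12 CPM in OIR-CIH and 4.54 ± 0.416 CPM in OIR-Norm (SD, n = 3 each).

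Socs3 (ENSMUSG00000053113, chr11:117966079-117970047), the feedback inhibitor, had 7.81, 8.81 and 8.02 CPM in OIR-CIH. In OIR-Norm it had 15.2, 31.2 and 16.3 CPM. Even the lowest OIR-Norm library was 1.73 times the highest OIR-CIH library, and OIR-Norm replicate 2 was far above its own group. The means were 8.21 ± 0.526 and 20.9 ± 8.95 CPM (SD, n = 3 each), a log2 fold change of -1.34 (SE 0.23, adjusted p = 0.0276 in edgeR). Without OIR-Norm replicate 2 the log2 fold change of Socs3 was -0.94 and the gene was still called, and without replicate 2 of both groups it was called at -0.99. Without any single OIR-CIH library the call was lost, with adjusted p of 0.178, 0.0781 and 0.119 in edgeR for replicates 1, 2 and 3.

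Per unit of Stat3, Socs3 was 0.267, 0.294 and 0.272 in OIR-CIH and 0.319, 0.632 and 0.403 in OIR-Norm, both in CPM per kb of exon. All OIR-CIH ratios were under all OIR-Norm ratios, and their spread was far smaller. Jak3 per unit of Jak1 was 0.0264 ± 0.00259 in OIR-CIH and 0.0565 ± 0.0108 in OIR-Norm (SD, n = 3 each), while Jak2 per unit of Jak1 was 0.435 ± 0.0186 and 0.454 ± 0.0209.

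**Figure D3:**
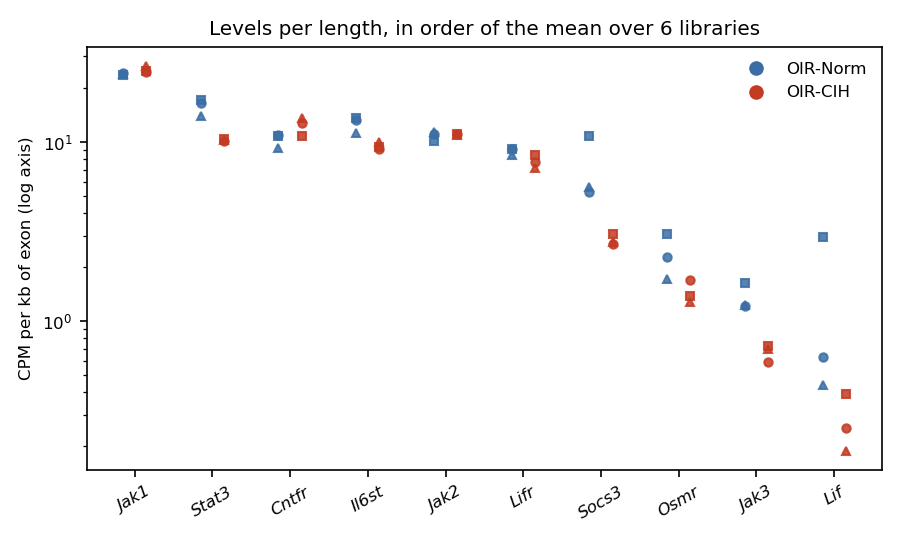
The level of each gene per length of exon (CPM per kb, log axis) is plotted for the 3 OIR-Norm (blue) and 3 OIR-CIH (red) libraries, with circles, squares and triangles for replicates 1, 2 and 3 and genes ordered by the mean over all 6. Jak1 is alone at the top with 24.6, and Lif lies lowest at 0.804 with the widest spread.

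Compared per length of exon, the kinase and transcription factor RNAs outweighed the ligand. Jak1 led with a mean of 24.6 CPM per kb over the 6 libraries and did not overlap any other gene. Stat3 (13.0), Cntfr (11.4), Il6st (11.1) and Jak2 (10.9 CPM per kb) followed, and their ranges over libraries overlapped, so their order is not settled. Lifr had 8.34 CPM per kb, with a range that reached that of Il6st only at its upper end. Socs3 (5.04), Osmr (1.90), Jak3 (1.01) and Lif (0.804 CPM per kb) were the lowest. OIR-Norm replicate 2 took the upper end of Socs3 to 10.8 CPM per kb, past Lifr, while its lower end was under the highest Osmr value. In OIR-Norm the range of Lif, 0.441 to 2.93 CPM per kb, spanned those of Jak3 and Osmr but for the upper end of Osmr, whereas in OIR-CIH Lif, at 0.189 to 0.391 CPM per kb, was below Jak3 in every library. In OIR-Norm Stat3 was above Il6st in all libraries, at 13.9 to 17.1 against 11.2 to 13.6 CPM per kb, and in OIR-CIH it was above it by less, at 10.1 to 10.3 against 9.11 to 9.92.

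Within the groups, the spread differed widely between genes. In OIR-Norm the coefficient of variation was 104% for Lif, 42.8% for Socs3, 28.8% for Osmr and 17.3% for Jak3, but 1.59% for Jak1. In OIR-CIH it was 37.2% for Lif, 6.41% for Socs3 and 1.15% for Stat3. Within OIR-Norm, replicate 2 was the highest library for 7 of the 10 genes (Lif, Lifr, Il6st, Osmr, Jak3, Stat3 and Socs3), and within OIR-CIH replicate 2 was the highest for 6 (Lif, Lifr, Jak2, Jak3, Stat3 and Socs3).

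Across the 6 libraries, as a description only since the points share the 2 groups and OIR-Norm replicate 2, Pearson's r of log2(CPM + 0.5) was 0.98 between Stat3 and Il6st, 0.97 between Socs3 and Jak3 and 0.93 between Socs3 and Lif. Jak1 and Cntfr had negative r with Stat3, -0.76 and -0.59. Among 14790 genes with a mean of at least 1 CPM, the 5 outside the route most like Stat3 by this measure were Rfx2 (0.997), Mis18a (0.994), Cebpd (0.994), Heg1 (0.992) and Podxl (0.991). The 5 most like Socs3 were Usp28 (0.994), Cd33 (0.993), Sbno2 (0.993), Prkd3 (0.990) and Slc24a4 (0.988). Pearson's r takes no account of the size of a change. The log2 fold changes of the 5 like Socs3 lay from -0.82 (Cd33) to -0.14 (Usp28), against -1.34 for Socs3. Only Cebpd among the genes like Stat3, and none of those like Socs3, was called.

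**Figure D4:**
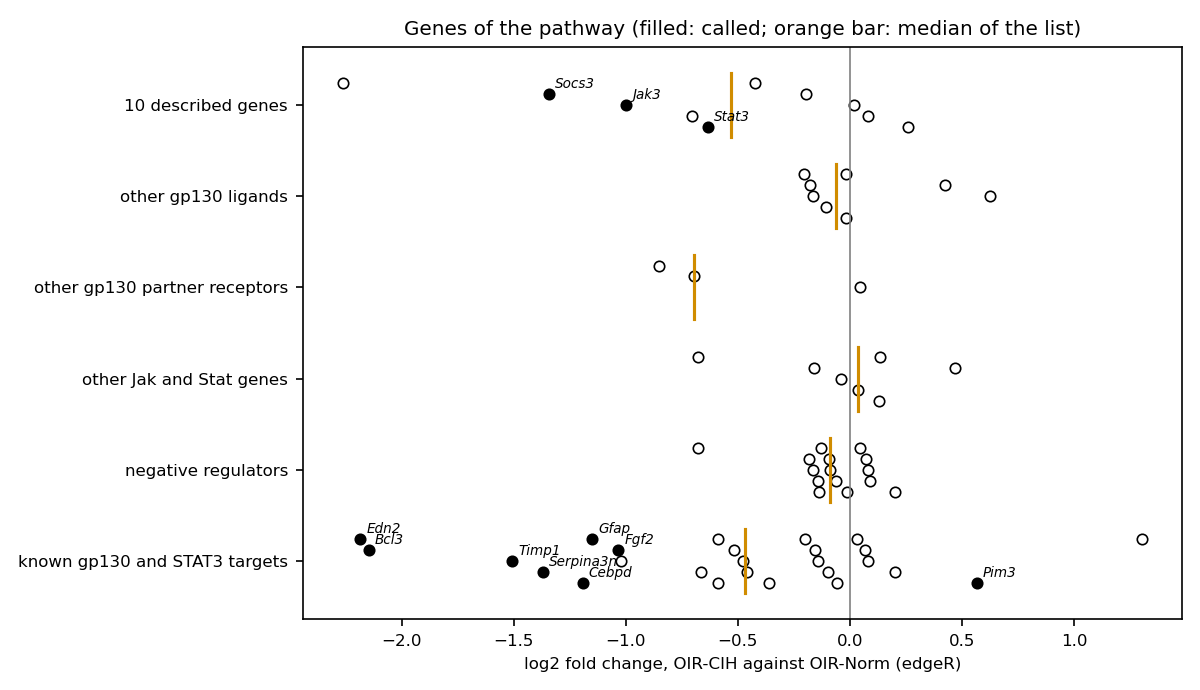
Each point is a gene of the route or of 1 of 5 further lists, placed by its log2 fold change of OIR-CIH against OIR-Norm from edgeR, filled and named where it was called, with an orange bar at the median of the list. Filled points lie only among the 10 genes and the targets, 10 of 11 of them below 0, and Pim3 is the 1 above it. Of all genes tested, 0.315% were called, 0.210% lower and 0.105% higher. The 10 genes and the lists were chosen with earlier results of these data known, so nothing is read from where the filled points lie.

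The rest of the pathway was described through 5 lists, written with earlier results of these data known. None of the other ligands, partner receptors, Janus kinases, STAT genes or negative regulators was called by edgeR, DESeq2 or limma. Of the 9 other ligands, Il6 had 7 counts over all libraries and was not tested, and of the 8 tested, 0 had an unadjusted p under 0.05 and 5 were under 1 CPM. Cntf, a survival factor for neurons, was the most abundant of them in CPM, with 7.09 ± 0.834 in OIR-CIH and 8.16 ± 1.44 in OIR-Norm (SD, n = 3 each). Clcf1 had a log2 fold change of -0.16 (SE 0.29), with replicate 2 of OIR-Norm highest at 5.47 CPM, and its sign turned without that library. Osm (0.0830 against 0.0555 CPM) and Ctf2 (0.112 against 0.0902 CPM) were near the limit of detection in both groups. The median log2 fold change of the 8 was -0.06, and it turned to 0.15 without OIR-Norm replicate 2 and to 0.19 without replicate 2 of both groups.

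Of the 3 partner receptors, Il6ra, the chain for interleukin 6, had 0.706, 0.867 and 1.11 CPM in OIR-CIH and 1.66, 1.40 and 1.41 CPM in OIR-Norm. These groups did not overlap, but the log2 fold change of -0.70 (SE 0.27) had an adjusted p of 0.306 in edgeR. Il6ra was the 1 receptor of the 3 with an unadjusted p under 0.05 (33.3%, beside 13.4% of all genes tested). Il11ra1 was near 0 in log2 fold change (0.05, SE 0.09), and Il27ra had 17 counts in all. Of 7 other Janus kinase and STAT genes, 1 had an unadjusted p under 0.05 (14.3%, near the 13.4% of all genes tested). That gene was Stat5a, a STAT of growth hormone and prolactin signalling, at a log2 fold change of 0.47 (SE 0.16, adjusted p = 0.284 in edgeR). Stat5b (0.13, or 0.03 without OIR-CIH replicate 3) and Stat6 (-0.16, or -0.09 without OIR-Norm replicate 2) had smaller log2 fold changes. The median of the 7 was 0.04, with no settled sign: it was -0.01 without OIR-CIH replicate 2 and -0.03 without replicate 2 of both groups.

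Of 15 negative regulators, 3 had an unadjusted p under 0.05 (20% of the list, beside 13.4% of all genes tested). The median log2 fold change was -0.09, and -0.02 without OIR-CIH replicate 2 or without OIR-Norm replicate 1. Ptpn6, the phosphatase SHP-1 of blood cells and microglia, had 1.62 ± 0.0309 CPM in OIR-CIH and 2.59 ± 0.238 CPM in OIR-Norm (SD, n = 3 each), a log2 fold change of -0.68 (SE 0.20, adjusted p = 0.223 in edgeR). Pias3, an inhibitor of STAT3 binding to DNA, was at 0.20 (SE 0.08), and the relatives of Socs3 Socs5 and Socs4 were at -0.18 (SE 0.07) and -0.16 (SE 0.08). Socs3 was called while its 7 relatives Socs1, Socs2, Socs4, Socs5, Socs6, Socs7 and Cish, with log2 fold changes from -0.18 to 0.07, were not; the difference between Socs3 and these genes was not itself tested.

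Of 26 known targets of gp130 and STAT3, 7 fell, 1 rose and 18 did not pass in edgeR. Of all genes tested, 0.315% were called. DESeq2 called 12 of the 26, and 135 genes in all. In edgeR an unadjusted p under 0.05 was found for 16 (61.5% of the list, beside 13.4% of all genes tested). The list was written with earlier results of these data known, so nothing is read from its counts or its median. The median log2 fold change was -0.47, and -0.27 without replicate 2 of both groups. The steepest was Edn2, an endothelin made by injured photoreceptors, with 3.53, 4.54 and 2.91 CPM in OIR-CIH and 14.8, 15.2 and 19.4 CPM in OIR-Norm, a log2 fold change of -2.18 (SE 0.17, adjusted p = 9.01e-05 in edgeR). Bcl3, a partner of NF-kappa-B, had 1.57, 1.42 and 1.27 CPM in OIR-CIH and 5.71, 7.26 and 5.78 CPM in OIR-Norm. The log2 fold change of Bcl3 was -2.15 (SE 0.19). For both genes the OIR-CIH libraries lay far under the OIR-Norm libraries.

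Gfap, the intermediate filament of reactive glia, fell from 158, 147 and 119 CPM in OIR-Norm to 61.5, 62.5 and 67.5 CPM in OIR-CIH, a log2 fold change of -1.15 (SE 0.10). The 2 markers of retinal astrocytes, which also make Gfap, summed to 28.7 to 34.1 CPM in OIR-CIH and 37.3 to 53.9 CPM in OIR-Norm with 0 called, and the sums of 9 Müller glia markers overlapped, at 4272 to 5210 and 4254 to 4806 CPM. The part of astrocytes in the Gfap result was not tested. The transcription factor Cebpd had 21.9 ± 1.10 CPM (SD, n = 3) in OIR-CIH and 49.8, 58.3 and 41.8 CPM in OIR-Norm, with a log2 fold change of -1.19 (SE 0.11).

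Serpina3n, a protease inhibitor of reactive astrocytes, fell with a log2 fold change of -1.37 (SE 0.12), the growth factor Fgf2 with -1.04 (SE 0.09) and Timp1, an inhibitor of matrix metalloproteinases, with -1.51 (SE 0.28). Pim3, a survival kinase, rose from 26.7, 25.3 and 27.5 CPM in OIR-Norm to 39.4, 39.4 and 39.0 CPM in OIR-CIH, a log2 fold change of 0.57 (SE 0.08, adjusted p = 0.00760 in edgeR). Edn2, Bcl3, Serpina3n, Gfap, Fgf2 and Cebpd were called in all 6 fits that left out 1 library and without replicate 2 of both groups. Timp1 was called in 2 of the 6, losing its call without each OIR-CIH library and without OIR-Norm replicate 2 (adjusted p from 0.0373 to 0.202 in edgeR), and Pim3 in 5, losing it without OIR-CIH replicate 1 at an adjusted p of 0.0511. Without replicate 2 of both groups neither of these was called.

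Among the targets, 21 had a RefSeq promoter window, and the STAT motif was in that of 5, Gfap, Bcl6, Icam1, Irf1 and Sbno2, which is 23.8% beside 9.55% of all genes. Only Gfap of these was called. A gene counts here if any of its windows held the motif. The list was written with earlier results of these data known, so nothing is read from this share. The sites of Gfap, Irf1 and Icam1 are shown for comparison with that of Socs3; Bcl6 and Sbno2 held matches at more than 1 annotated start and theirs are not printed. Each has 10 bases on each side, with the motif in capitals and the strand that of the gene.
Gfap, chr11:102897184-102897212, minus strand: atgggggtgcTTCCAGGAAgtcaggggca
Socs3, chr11:117969502-117969530, minus strand: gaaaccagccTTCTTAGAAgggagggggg
Irf1, chr11:53769914-53769942, plus strand: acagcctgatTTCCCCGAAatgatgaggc
Icam1, chr9:21015888-21015916, plus strand: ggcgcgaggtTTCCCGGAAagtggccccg

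The Gfap motif begins 2 bases before the annotated start, the Irf1 motif 90 and the Icam1 motif 42 bases before it. Irf1 and Icam1, which respond to interferon and to inflammatory cytokines, had log2 fold changes of -0.48 (SE 0.16) and -1.02 (SE 0.27), with groups that did not overlap and adjusted p of 0.273 and 0.186 in edgeR.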

How the data were processed

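Retinal RNA of 3 OIR-CIH and 3 OIR-Norm libraries was prepared by the authors from 250 ng with a stranded poly(A) kit and aligned with STAR 2.7.9a, which also counted reads per gene. The deposited values are raw counts, joined in 1 table without normalization. The genome is named as an Ensembl release of a later build in the study's methods and as GRCm38 in the submitters' processing notes. Which strand was counted is not stated. Coordinates and exon lengths were taken from GENCODE M21 (GRCm38) through the gene identifiers and may differ from the annotation used for counting. Symbols were found for 32158 of 32285 genes.

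Groups came from the sample titles. The 20021 genes whose counts summed to at least 10 entered the fit, as in the study. They were scaled by TMM and tested with edgeR 4.0.16 (quasi-likelihood, R 4.3.3), with Benjamini-Hochberg adjustment over all of them. The SE is the log2 fold change divided by the square root of F. The methods of the study name DESeq, and DESeq2 1.42.0 and limma 3.58.1 on log2(CPM + 0.5) were alternatives, beside another scaling, 2 other filters, a replicate block, calls without a minimum fold change and fits without each single library. Leaving out replicate 2 of both groups was added after the lens markers had been seen. The fits were tested on simulated data. Exact permutation of 3 against 3 libraries cannot give a p under 0.1, so none is given. No pair of replicates agreed within sampling noise.

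The 10 genes, the 5 pathway lists and the marker lists were chosen with earlier results of these data known. Named are the 10 genes; of each pathway list, all called genes and otherwise those of lowest adjusted p up to 4 (1 is not reported here); and the 5 genes most like Stat3 and Socs3. Il6, the relatives of Socs3 and the targets with a motif were named after their values were seen. Promoter windows are those of RefSeq.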

Additional observations from a re-analysis of the deposited data

How the results depend on the processing

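Stat3 was called under all 15 alternatives, Socs3 and Jak3 under the 7 alternatives of tool, scaling, filter and block, and both depended on single libraries as given above. DESeq2 called 135 genes, 101 lower and 34 higher, against 63 (42 lower, 21 higher), with adjusted p for 15735 genes. Leaving out 1 library gave 29 to 97 genes, 22 to 81 lower and 7 to 31 higher, and called 1 to 5 of the 10 genes of the route: 1 (Stat3) without each OIR-CIH library and 5 without OIR-Norm replicate 3, where Il6st and Osmr were added. Leaving out replicate 2 of both groups gave 41 genes, 8 of them higher. Without OIR-Norm replicate 2 the log2 fold changes of Jak2 and Clcf1 turned to -0.0281 and 0.236 (range without 1 library -0.0281 to 0.0531 and -0.456 to 0.236), and without replicate 2 of both groups those of Jak2, Clcf1 and Il11ra1 turned to -0.0337, 0.194 and -0.0102. The cause was not tested. Replicate numbers did not pair the libraries: the correlation of deviations from the group means was 0.16, 0.14 and -0.24 for numbers 1, 2 and 3. The replicate block gave 68 calls (48 shared with the 63), with Lif called (log2 fold change -2.11, adjusted p = 0.0308 in edgeR, against 0.0308 to 0.257 over the 7 alternatives of tool, scaling, filter and block) and Timp1 not called (adjusted p = 0.0618). The low counts of Lif (28 to 363) and Jak3 (80 to 247) limit their precision.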
